A study of Mus musculus with 22 samples.

Results

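DNA replication and nucleotide synthesis genes were examined as 1 group of 43 genes in serially passaged mouse embryonic fibroblasts (MEFs), primary cells with a limited number of divisions in culture, after which they turn senescent. The genes were chosen by symbol, as a list of known replication factors, and not by their counts, although earlier results of these data were known. All 43 were found among the 55401 gene identifiers of the deposited count table, and all 43 passed the filter on low counts in every model. They were sorted by role into the MCM helicase (6 genes), origin licensing and assembly of the active helicase (9), DNA polymerases and primase (7), the sliding clamp, its loader and lagging strand factors (8), nucleotide synthesis (4), chromatin assembly and maintenance methylation (5) and G1/S regulators (4).

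Libraries of 6 groups were compared, in 2 sets of MEFs. The *S6K1* set held early WT (4 libraries), late WT (4) and late *S6K1* KO MEFs (3), and the *S6K1/S6K2* set held early WT (4), late WT (4) and late *S6K1/S6K2* double KO (DKO) MEFs (3). Early MEFs were at passage 3 and late MEFs at passage 8, and the labels name no drug and no introduced gene. MEFs of each genotype were bulk cultures from embryos whose head and viscera had been removed, so cells of several types could be present. According to the methods of the study, KO and WT MEFs of the *S6K1* set came from littermates, whereas the WT MEFs set beside DKO MEFs came from other mothers of an earlier breeding stage, so genotype and litter cannot be told apart there. The labels do not say which libraries share an embryo or a culture, and *P* values measure the spread between libraries. Expression is given as CPM, the share of a library's counts scaled by TMM, and differences as log2 fold changes from quasi-likelihood fits in edgeR, with *P* values adjusted by Benjamini-Hochberg over all genes tested and a threshold of 0.05.

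The products of these genes copy the genome once in each S phase. The origin recognition complex, CDC6 and CDT1 load the MCM2–7 ring onto DNA, CDC45 and GINS turn it into the active CMG helicase, and polymerase α–primase lays down primers that polymerases ε and δ extend. RFC loads the PCNA clamp, FEN1 and LIG1 finish Okazaki fragments, ribonucleotide reductase, thymidylate synthase and thymidine kinase supply deoxynucleotides, and CAF-1, ASF1, UHRF1 and DNMT1 restore nucleosomes and DNA methylation behind the fork. Most of these genes are known targets of E2F transcription factors, which are held in check by the RB family when fibroblasts leave the cell cycle. S6K1 and S6K2 are kinases that act downstream of mTORC1, a regulator of cell growth.

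Because the members are known for shared transcriptional control, their promoters were read from RefSeq (GRCm38.p6) as the stretch from 250 bases before to 50 bases after each annotated start. Promoters were found for 36 of the 43 members, and none was in the table for *Prim2*, *Rfc2*, *Gins1*, *Mcm4*, *Gins2*, *Ccne2* and *Pole*. An E2F word (TTCCCGC or TTGGCGC or TTCGCGC, either strand) was present for 23 of the 36 members (63.9%) and for 9.20% of all 27025 genes in the table. CCAAT, the word bound by NF-Y, was present for 22 of 36 (61.1%) and for 41.1% of all genes. TTTGAA, known as the CHR word of genes expressed late in the cell cycle, was present for 7 of 36 (19.4%), close to its 20.2% among all genes. On 1 stretch the last 2 E2F words can overlap each other, and the second can overlap CCAAT. Of the 12 members that passed the test as lower in late DKO than in late WT MEFs, where 3.95% of all genes tested did, 9 held an E2F word, and of the 24 other members with a promoter 14 did. A word at any annotated start of a gene counted. Of the 12, *E2f2*, *Fen1*, *Lig1*, *Mcm7* and *Uhrf1* had 2 or 3 starts, and of the 24 only *Dnmt1* had several. More starts give more chances of a match, so these 2 counts cannot be compared directly.

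The 160 bases before the most upstream annotated start are printed for 10 members, 5′ to 3′ on the strand of the gene, with E2F, CCAAT and CHR words in capitals. *Mcm5*, *Mcm6*, *Asf1b*, *Uhrf1*, *Cdt1*, *Pcna* and *E2f2* are shown as members that passed the test in DKO MEFs, and *Tyms*, *Rfc3* and *E2f1* as the 3 members with the smallest estimates in the same comparison. They lie at chr8:75109349-75109508, plus strand (*Mcm5*), chr1:128359706-128359865, minus strand (*Mcm6*), chr8:83955534-83955693, plus strand (*Asf1b*), chr17:56303177-56303336, plus strand (*Uhrf1*), chr8:122567855-122568014, plus strand (*Cdt1*), chr2:132253181-132253340, minus strand (*Pcna*), chr4:136172114-136172273, plus strand (*E2f2*), chr5:30073626-30073785, minus strand (*Tyms*), chr5:151651209-151651368, minus strand (*Rfc3*) and chr2:154569427-154569586, minus strand (*E2f1*). Each stretch is promoter sequence directly upstream of the gene's annotated start.
Mcm5: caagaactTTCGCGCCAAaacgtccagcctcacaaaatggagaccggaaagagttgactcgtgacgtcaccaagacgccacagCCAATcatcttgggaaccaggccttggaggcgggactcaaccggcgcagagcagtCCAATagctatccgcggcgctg
Mcm6: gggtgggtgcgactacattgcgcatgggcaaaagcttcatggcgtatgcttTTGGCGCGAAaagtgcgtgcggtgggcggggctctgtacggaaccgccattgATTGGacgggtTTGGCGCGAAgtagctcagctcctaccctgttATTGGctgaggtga
Asf1b: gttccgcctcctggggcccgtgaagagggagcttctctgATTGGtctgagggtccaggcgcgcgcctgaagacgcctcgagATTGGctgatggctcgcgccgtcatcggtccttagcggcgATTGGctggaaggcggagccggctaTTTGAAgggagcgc
Uhrf1: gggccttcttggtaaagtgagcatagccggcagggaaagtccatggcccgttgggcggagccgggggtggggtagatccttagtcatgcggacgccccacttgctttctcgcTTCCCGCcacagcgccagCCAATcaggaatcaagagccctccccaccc
Cdt1: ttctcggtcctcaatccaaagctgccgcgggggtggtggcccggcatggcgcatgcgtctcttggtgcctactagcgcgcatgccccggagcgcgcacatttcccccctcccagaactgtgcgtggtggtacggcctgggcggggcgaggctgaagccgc
Pcna: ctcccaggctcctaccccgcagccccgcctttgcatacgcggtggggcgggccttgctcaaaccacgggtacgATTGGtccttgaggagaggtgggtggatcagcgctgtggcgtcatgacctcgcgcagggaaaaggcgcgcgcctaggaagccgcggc
E2f2: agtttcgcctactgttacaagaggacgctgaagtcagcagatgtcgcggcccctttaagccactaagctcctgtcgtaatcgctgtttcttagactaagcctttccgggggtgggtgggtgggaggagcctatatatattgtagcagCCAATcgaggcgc
Tyms: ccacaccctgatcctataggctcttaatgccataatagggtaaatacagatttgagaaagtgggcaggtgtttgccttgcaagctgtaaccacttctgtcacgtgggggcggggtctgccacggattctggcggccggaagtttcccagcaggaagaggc
Rfc3: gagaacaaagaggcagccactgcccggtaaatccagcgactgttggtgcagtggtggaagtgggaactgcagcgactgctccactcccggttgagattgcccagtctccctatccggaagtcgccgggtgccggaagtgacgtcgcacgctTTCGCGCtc
E2f1: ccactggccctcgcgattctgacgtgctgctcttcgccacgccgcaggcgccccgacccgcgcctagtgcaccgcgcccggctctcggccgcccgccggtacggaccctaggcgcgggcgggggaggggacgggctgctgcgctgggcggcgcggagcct

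*Mcm6* holds overlapping E2F words at 2 places in this stretch and CCAAT at 2 places, *Mcm5* overlapping E2F words at 1 place and CCAAT at 2, and *Asf1b* 3 CCAAT words and a CHR word but no E2F word. *Uhrf1* has 1 E2F word and 1 CCAAT, *Pcna* and *E2f2* 1 CCAAT each and *Rfc3* 1 E2F word. In *Cdt1*, *Tyms* and *E2f1* none of these words occurs in the 160 bases, and for *Cdt1* both E2F words counted above lie outside them. The E2F word counted above for *E2f2* also lies outside its printed stretch. A match describes the letters only, and binding was not measured.

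Total counts per library were 10742454 to 17314832, and the counts of the 43 members together were 6826 to 26922. *Rps6kb1*, which encodes S6K1, had log2 fold changes of −1.67 in KO MEFs (adjusted *P* = 0.00744, edgeR) and −1.64 in DKO MEFs (adjusted *P* = 0.000786) against late WT, and *Rps6kb2*, which encodes S6K2, −3.95 in DKO MEFs (adjusted *P* = 0.000412), so the knocked-out genes were low where the labels say. Y-linked genes were expressed in 2, 1 and 3 libraries of early WT, late WT and KO MEFs and in 2, 3 and 1 libraries of early WT, late WT and DKO MEFs, so embryo sex was not balanced between groups. All 10 fibroblast markers were above 1 CPM in every group. The 19 macrophage markers summed to 470.1 to 1151 CPM in early WT, 5453 to 11247 in late WT and 3680.4 to 4945 in late KO MEFs, and to 612 to 2054 in early WT, 7518 to 12986 in late WT and 932 to 3433 in late DKO MEFs. In these bulk libraries, fewer cells of a type and less RNA per cell cannot be told apart.

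The mean level of the 43 genes, computed per library as the mean of log2 CPM after centring each gene over the 22 libraries, was lowest in late DKO MEFs. The level was −0.90, −0.87 and −0.77 in the 3 DKO libraries, against −0.21, −0.14, −0.36 and −0.08 in their late WT and 0.35, 0.16, 0.16 and −0.04 in their early WT libraries. Every DKO library was below all 19 others, and the 4 late WT libraries of this set were below all 4 early ones. In the *S6K1* set it was 0.43, 0.35, 0.58 and 0.16 in early WT, 0.32, −0.02, 0.24 and 0.58 in late WT and 0.27, 0.09 and −0.30 in late KO libraries. These 3 groups overlapped, with KO replicate 3 the lowest of the 11. Differences between group means were −0.10 for late against early WT and −0.26 for KO against late WT MEFs in the *S6K1* set. They were −0.35 for late against early WT and −0.65 for DKO against late WT MEFs in the *S6K1/S6K2* set. Leaving out KO replicate 3 moved the KO difference to −0.10, and leaving out any 1 library kept the DKO difference between −0.71 and −0.61. Because the members were chosen with these data known, no test is given for this mean.

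**Figure D1:**
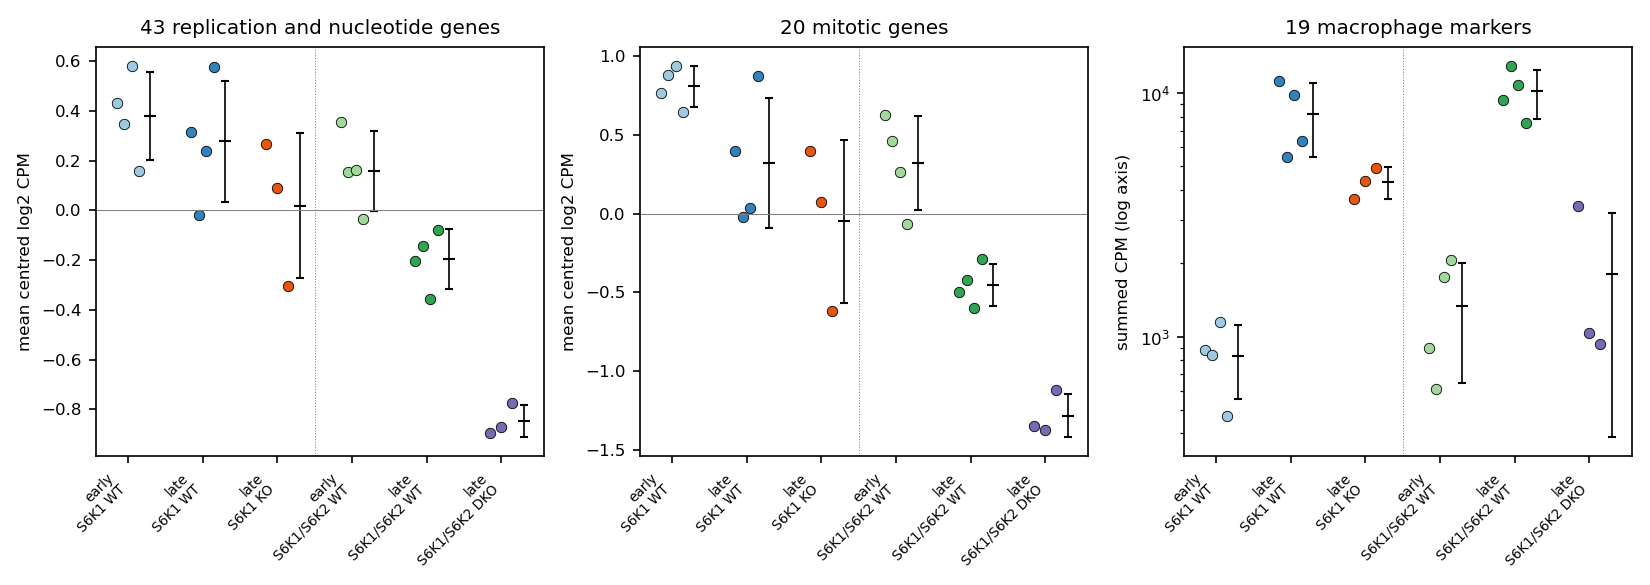
Mean centred log2 CPM of the 43 members (left) and of 20 mitotic genes (middle), and summed CPM of 19 macrophage markers on a log axis (right), in each of 22 libraries by group. Points are libraries, bars are the mean ± SD of the group, and a dotted line parts the 2 MEF sets; the DKO libraries, at −0.90, −0.87 and −0.77, are the 3 lowest in the left panel.

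Gene by gene, late DKO MEFs had the lowest group mean for 42 of the 43 members. The exception was *E2f1*, lowest in early WT and highest in late DKO MEFs of the same set. Early WT MEFs of the *S6K1* set had the highest group mean for 22 members and late WT MEFs of that set for 12. The ratio of the highest to the lowest group mean was smallest for *E2f1* (1.39), *Mcm4* (1.46) and *Orc6* (1.51), and largest for *E2f2* (6.07), *Asf1b* (5.33) and *Mcm10* (5.06).

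**Figure D2:**
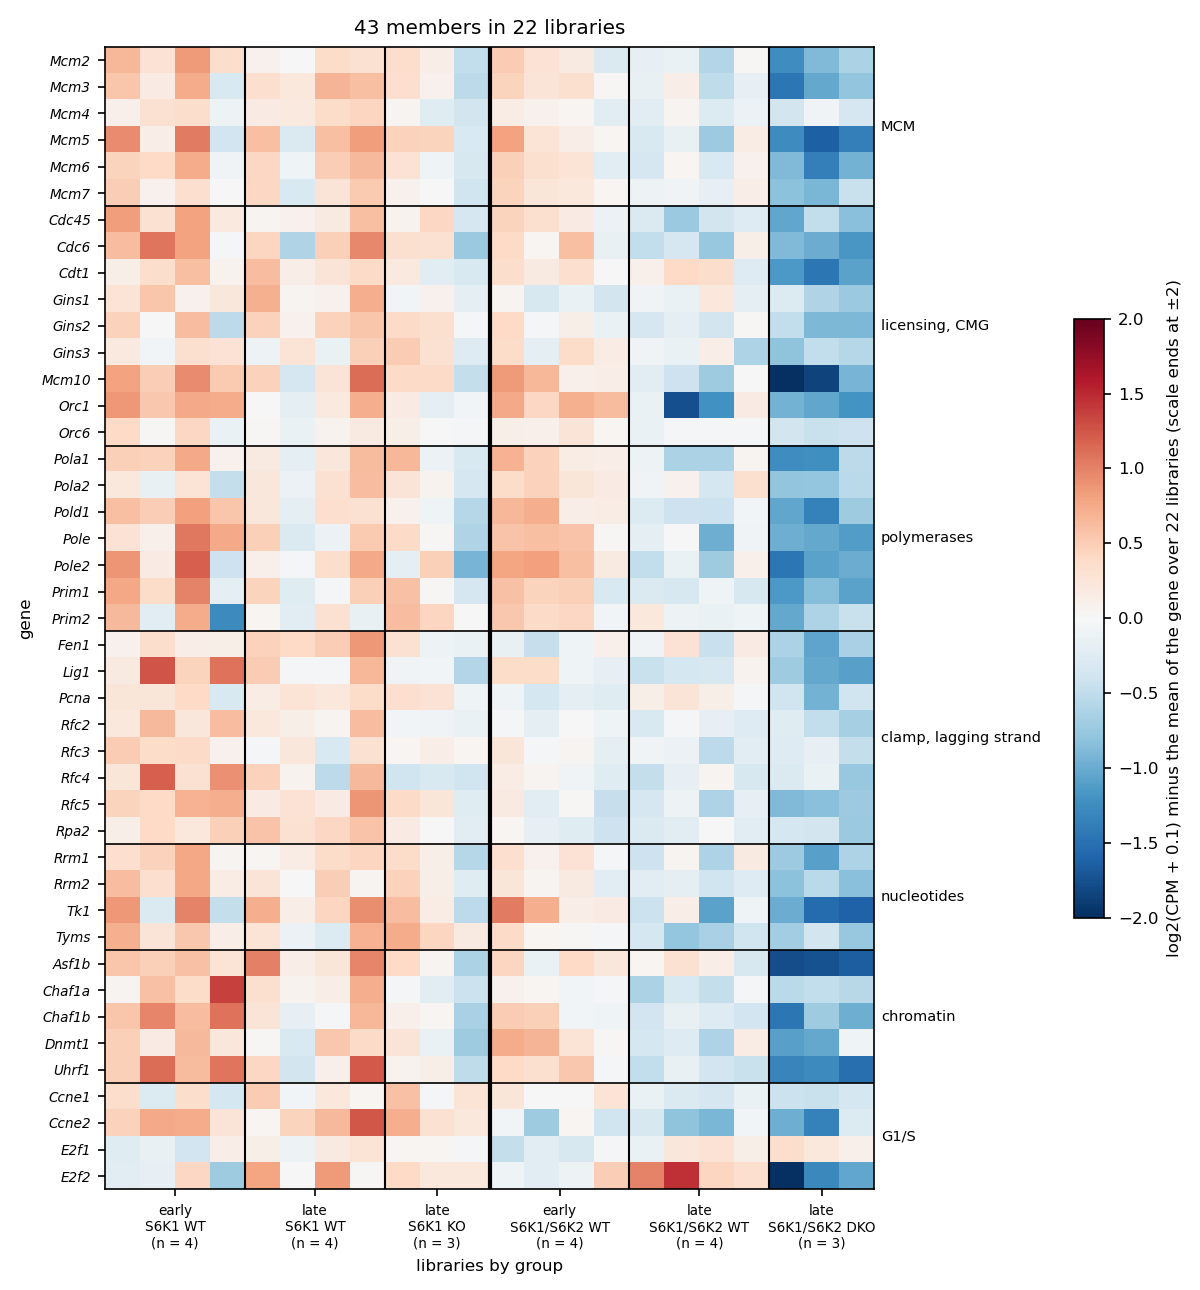
Each row is 1 of the 43 members, ordered by role, and each column 1 of the 22 libraries. Colour is log2(CPM + 0.1) minus the mean of the gene over the 22 libraries, blue for lower and red for higher, with the scale ending at ±2. The 3 DKO columns are blue in nearly all rows. *E2f1* stands out there as lying above its mean, and some rows, such as *Mcm4* and *Rfc3*, are pale.

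Per kilobase of exon, the levels of members spanned a wide range. The highest means over the 22 libraries were those of *Rfc2* (34.3 CPM per kb), *Pcna* (32.1) and *Rrm1* (31.6), and the lowest those of *E2f2* (0.417), *Orc1* (0.680) and *Mcm10* (0.697). At the low end *E2f2* had 2 to 72 counts per library, so its values are the least precise. Exon lengths came from GENCODE vM1, and the transcripts in use in these cells were not determined.

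Late WT MEFs were first compared with early WT MEFs, which asks how passage toward senescence changes these genes without a knockout. In MEFs of the *S6K1* set none of the 43 members passed the test, while 12.9% of the 14132 genes tested did. At an unadjusted *P* under 0.05 there were 3 members, beside 3896 of the 14132 genes. DESeq2 also called 0 members, against 18.8% of all genes. The median member log2 fold change was −0.17, beside −0.04 over all genes, and 27 of 43 estimates were below 0. That median was −0.01, with 22 estimates below 0, without early WT replicate 3. It was −0.24, with 32 below 0, without early WT replicate 4. The libraries of the 2 groups did not overlap for 1 member in the lower direction (*Pold1*) and 1 in the higher (*Fen1*), against 9.1% and 9.07% of all genes.

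In the *S6K1/S6K2* set 3 members fell with passage, *Uhrf1*, *Tyms* and *Pold1*, against 4.89% of the 14365 genes tested, and 1 rose, *E2f1*, against 8.28%. The median member log2 fold change was −0.30, beside 0.01 over all genes, and 37 of 43 estimates were below 0. Late libraries lay below all early libraries for 12 members and above them for 1 (*Pcna*), against 10.5% and 10% of all genes. By role, the polymerases and primase had the lowest median (−0.63, 7 genes) and the clamp and lagging strand group a median of −0.11 (8 genes). The number of calls depended on single libraries: it was 0 without early WT replicate 1, 10 without early WT replicate 4, 7 without late WT replicate 4, 2 without early WT replicate 3, and 1 without early WT replicate 2 or late WT replicate 2 or 3. How many of all genes were called in each of these fits is not given here. DESeq2 called 12 members lower and 2 higher, against 9.11% and 10.7% of all genes. The passage effects of the 2 sets were not shown to differ, since the interaction term called 0 members and 0.712% of 14886 genes. By DESeq2 it also called 0 members, against 1.49% of all genes.

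**Figure D3:**
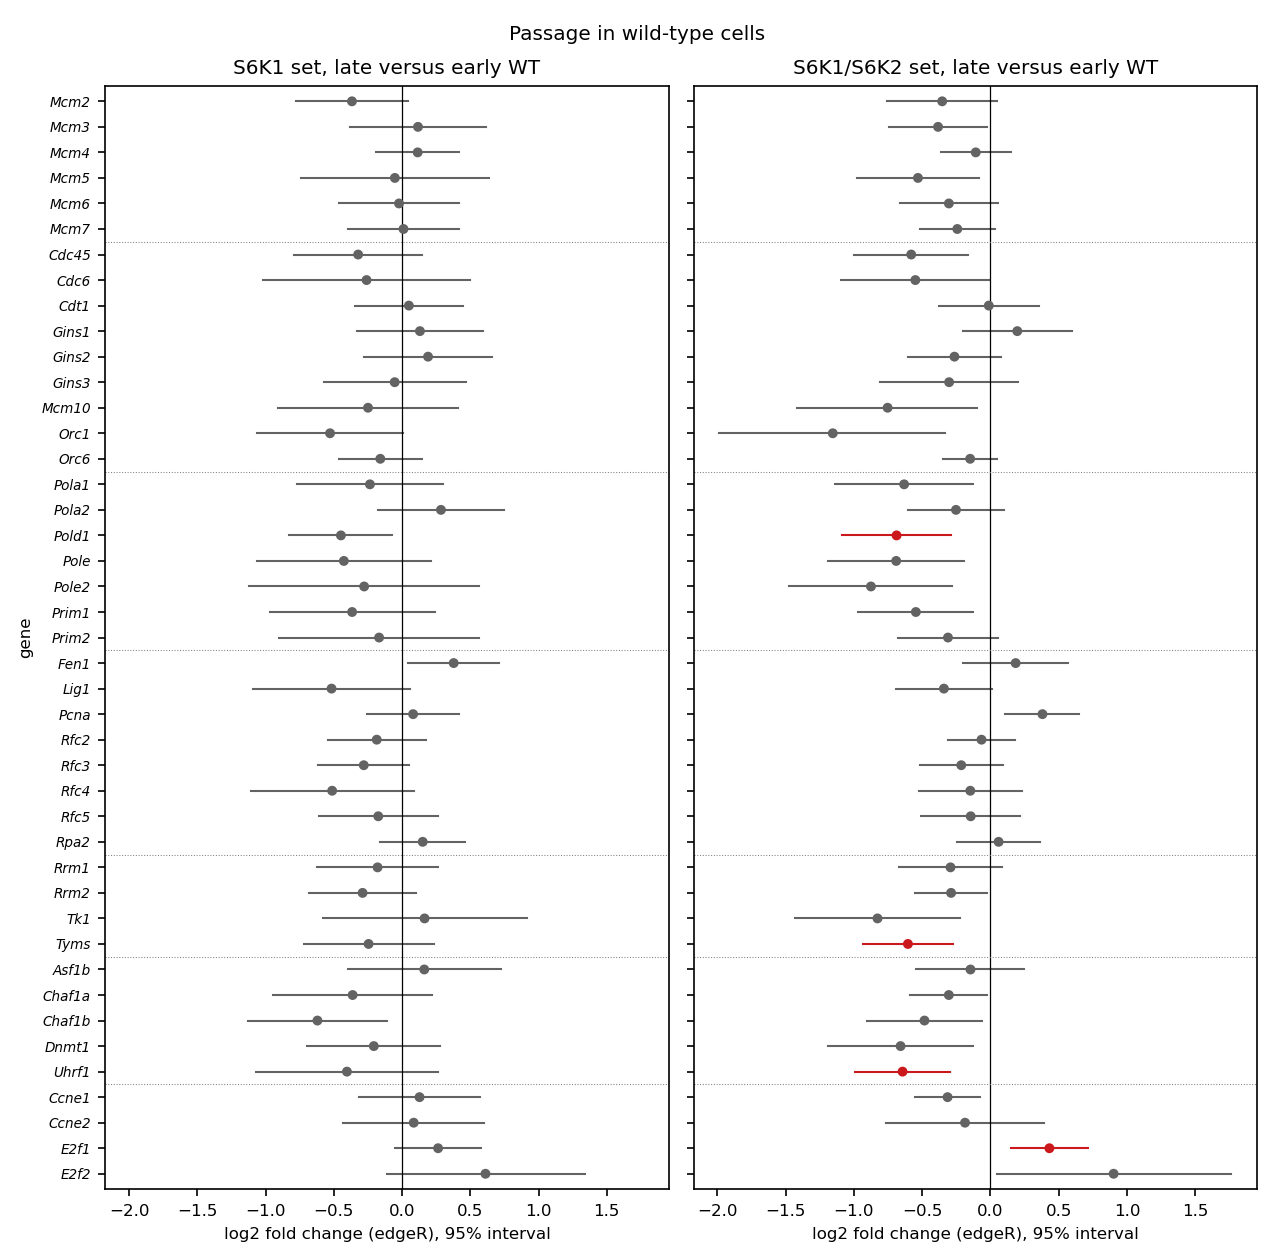
Log2 fold change of each of the 43 members (points) with its 95% interval (lines), late against early WT MEFs, for the *S6K1* set (left) and the *S6K1/S6K2* set (right), ordered by role. Red marks an adjusted *P* under 0.05: 0 members on the left and 4 on the right, of which *E2f1* is above 0.

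KO or DKO MEFs were then compared with late WT MEFs of their set, at the same late passage. For DKO MEFs a difference can reflect genotype or litter, which cannot be told apart. In DKO MEFs 12 members were lower (*E2f2*, *Asf1b*, *Cdt1*, *Mcm5*, *Uhrf1*, *Mcm6*, *Mcm3*, *Fen1*, *Pola2*, *Lig1*, *Pcna* and *Mcm7*) and none higher, against 3.95% lower among all genes tested. Their log2 fold changes were −2.56 to −0.67. All estimates but that of *E2f1* (0.09) were below 0, with a median of −0.67 beside −0.01 over all genes. The 3 DKO libraries lay below all 4 late WT libraries for 28 of the 43 members and above them for 0, against 10.5% lower among all genes. DESeq2 called 22 members lower, against 5.92% of all genes. Without DKO replicate 2 edgeR called 2 members, *Asf1b* and *Cdt1*, with a median of −0.56, and without late WT replicate 2 or DKO replicate 3 it called 6 or 7. Fewer of all genes were also called without DKO replicate 2, as given in the closing section.

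In KO MEFs no member passed the test, and 0.0425% of the 14132 genes did. There were 5 members at an unadjusted *P* under 0.05, beside 1499 of the 14132 genes. DESeq2 called 0 members, against 1.88% of all genes. The median member log2 fold change was −0.27, beside −0.01 over all genes, with 38 of 43 estimates below 0, and it was −0.12 without KO replicate 3 and −0.44 without KO replicate 1. KO libraries lay below all late WT libraries for 6 members (*Mcm4*, *Fen1*, *Lig1*, *Rfc2*, *Rpa2* and *Chaf1a*), against 6.21% of all genes. The difference between the effects of KO and DKO was tested directly. The interaction term called 0 members with edgeR, against 0.00672% of 14886 genes, which does not show the effects to be equal. DESeq2 called 1 member lower, *E2f2*, against 0.208% of all genes.

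**Figure D4:**
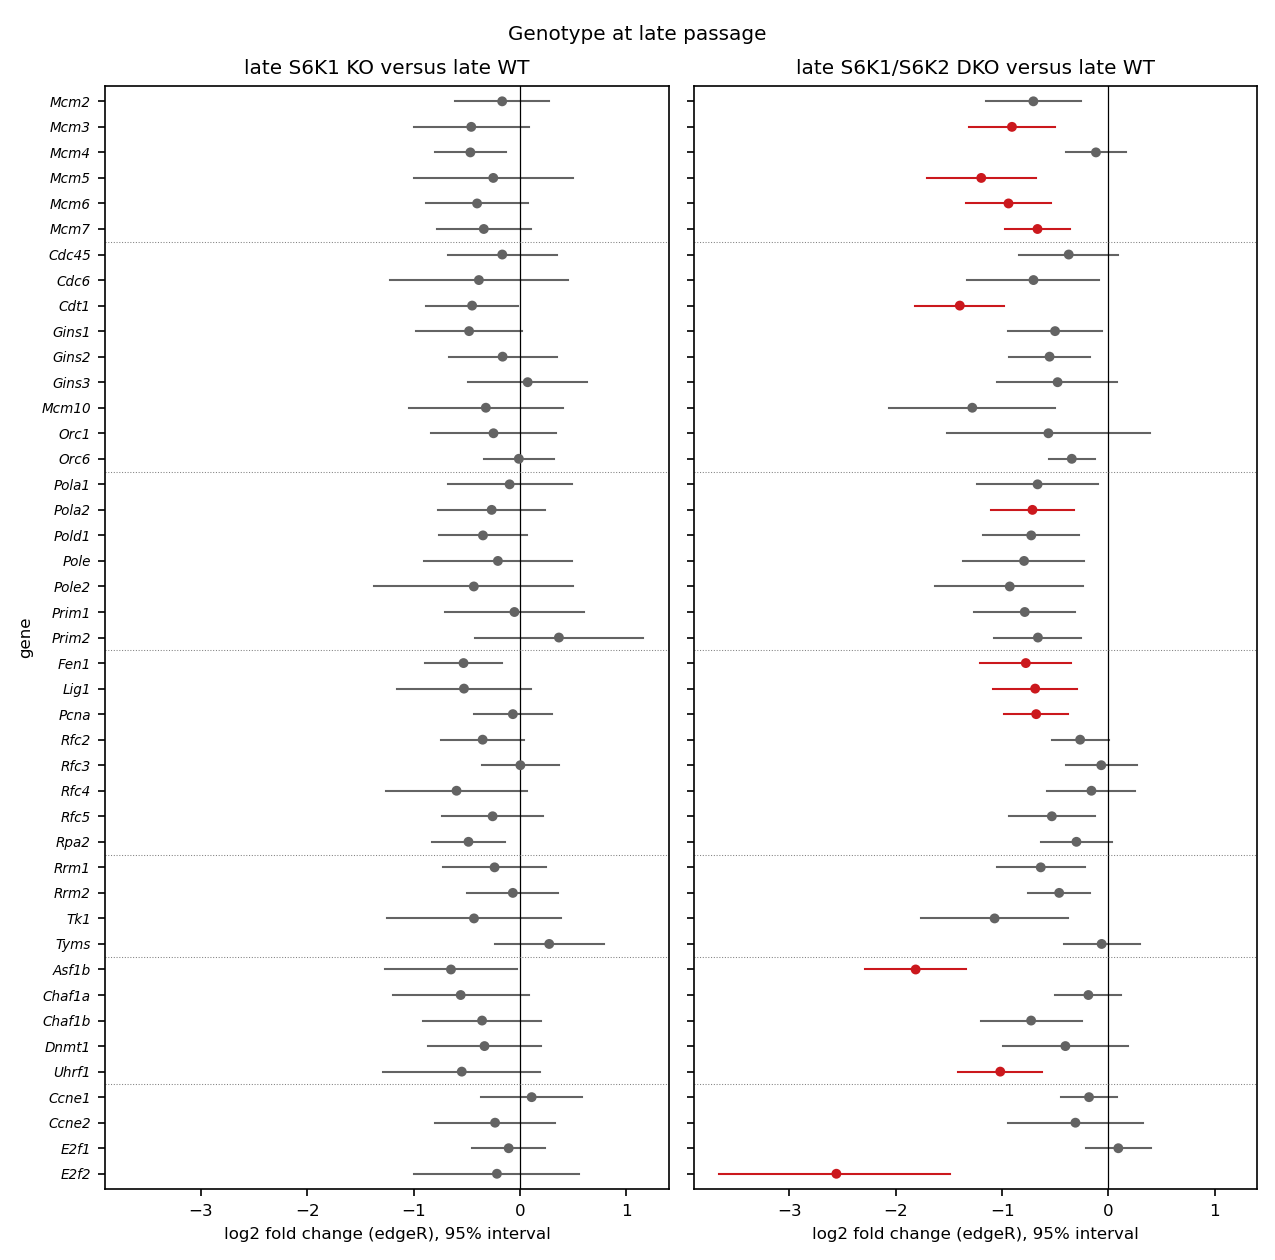
Log2 fold change of each of the 43 members (points) with its 95% interval (lines) at late passage, for KO against WT MEFs of the *S6K1* set (left) and DKO against WT MEFs of the *S6K1/S6K2* set (right), ordered by role. Red marks an adjusted *P* under 0.05, which 0 members reach on the left and 12 on the right, all below 0.

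Late KO and DKO MEFs were also set beside early WT MEFs. These comparisons share libraries with those above and are given as values of their own. DKO MEFs had 32 members lower and 1 higher (*E2f1*), against 8.92% and 9.34% of all genes, with a median of −0.97. DKO libraries lay below all early WT libraries for 36 members and above them for 1, against 17.6% and 13.1% of all genes. The members that did not pass were *Mcm4*, *Gins1*, *Gins3*, *Pcna*, *Rfc2*, *Rfc3*, *Rfc4*, *Fen1*, *Rpa2* and *Ccne2*, of which 6 belong to the clamp and lagging strand group. KO MEFs had 4 members lower, *Pold1*, *Chaf1b*, *Rfc4* and *Lig1*, against 5.24% of all genes, and KO libraries lay below all early WT libraries for 10 members, against 13.2%. In early WT MEFs of the *S6K1* set, replicates 2 and 4 stood apart from replicates 1 and 3 in some members, high in *Rfc4*, *Lig1* and *Uhrf1* and low in *Mcm5* and *Tk1*. With both left out, an alternative chosen after seeing the data, KO MEFs had 0 members called against early WT MEFs. It was also 0 without KO replicate 2 or 3 and 1 without early WT replicate 2 or 4 or KO replicate 1, and DESeq2 called 8, against 9.15% of all genes.

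The MCM helicase is a ring of 6 different subunits. In the *S6K1/S6K2* set *Mcm6*, the most abundant in CPM, was at 99.6, 89.1, 86.3 and 61.2 CPM in early WT, 56.5, 73.5, 57.5 and 75.9 CPM in late WT and 38.5, 27.6 and 37.02 CPM in late DKO MEFs. The DKO libraries lay below every other library of the set, and early and late WT libraries overlapped. *Mcm6* fell in DKO against late WT MEFs (log2 fold change −0.94, 95% interval −1.34 to −0.54, adjusted *P* = 0.0147, edgeR), as did *Mcm5*, *Mcm3* and *Mcm7*. *Mcm5* was at 6.60 to 8.56 CPM in DKO and 12.4 to 22.8 CPM in late WT libraries (−1.20, adjusted *P* = 0.0156, edgeR), and *Mcm3* at 10.5 to 16.7 and 20.2 to 31.7 CPM (−0.91, adjusted *P* = 0.0176). *Mcm7* was at 21.4 to 29.7 CPM in DKO and 36.3 to 44.3 CPM in late WT libraries (−0.67, adjusted *P* = 0.0194, edgeR). In each case the ranges did not overlap. Library by library *Mcm7* was at 55.4, 47.9, 46.8 and 41.6 CPM in early WT, 37.8, 38.5, 36.3 and 44.3 CPM in late WT and 23.01, 21.4 and 29.7 CPM in late DKO MEFs. For *Mcm2* the log2 fold change was −0.71 and did not pass (adjusted *P* = 0.0777, edgeR), although all 3 DKO libraries were below all late WT libraries. Within the *S6K1* set *Mcm6* was at 96.7, 94.2, 119.8 and 67.7 CPM in early WT, 95.2, 67.2, 100.1 and 111 CPM in late WT and 87.7, 67.1 and 57.4 CPM in late KO MEFs. *Mcm7* was there at 57.1, 42.9, 51.1 and 40.1 CPM in early WT, 53.98, 32.8, 48.3 and 58.2 CPM in late WT and 42.8, 40.9 and 30.8 CPM in late KO MEFs. These 2 members had the smallest passage estimates of that set (−0.02 and 0.01), and the groups overlapped in each case.

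*Mcm4* had the smallest DKO estimate of the 6 subunits and was singled out after its values were seen. It was at 53.7, 51.4, 49.8 and 41.5 CPM in early WT, 41.8, 50.1, 40.1 and 44.6 CPM in late WT and 37.5, 45.9 and 38.5 CPM in late DKO MEFs, and DKO and late WT libraries overlapped (log2 fold change −0.12, 95% interval −0.40 to 0.16). Across the *S6K1* set it was at 51.8, 60.1, 61.5 and 45.02 CPM in early WT, 54.1, 55.7, 62.6 and 65.2 CPM in late WT and 50.3, 41.1 and 37.7 CPM in late KO MEFs, with KO libraries below all late WT libraries (log2 fold change −0.47, adjusted *P* = 0.314, edgeR). Per kilobase of exon, *Mcm6* had the highest group mean of the 6 subunits in the other 5 groups, while in DKO MEFs *Mcm4* was highest at 11.3 and *Mcm5* lowest at 2.20 CPM per kb. The ratio of the highest to the lowest subunit was 5.15 in DKO and 2.995 in late WT MEFs. *Mcm4* made up 31.2 ± 4.52% (SD, n = 3) of summed MCM levels per kb in DKO MEFs, 27.1 to 36.1% in single libraries. In late WT MEFs of the set it made up 21.4 ± 1.48% (SD, n = 4), and no library of any WT or KO group was above 24.5%.

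Origin licensing depends on CDT1, whose activity is limited to G1, and in the *S6K1/S6K2* set *Cdt1* was at 15.98, 14.2, 15.8 and 12.5 CPM in early WT, 13.4, 16.5, 16.01 and 10.4 CPM in late WT and 5.57, 4.52 and 5.87 CPM in late DKO MEFs. Early and late WT libraries overlapped (log2 fold change −0.01), and each DKO library was below 8.00000 CPM. *Cdt1* fell in DKO against late WT MEFs (log2 fold change −1.40, 95% interval −1.82 to −0.98, adjusted *P* = 0.00385, edgeR) and was called in all 17 alternative settings. In the *S6K1* set it was at 13.6, 15.9, 18.9 and 13.1 CPM in early WT, 19.1, 13.6, 15.02 and 16.3 CPM in late WT and 14.4, 10.7 and 10.1 CPM in late KO MEFs, and KO and late WT libraries overlapped (log2 fold change −0.45, adjusted *P* = 0.451, edgeR). *Orc6*, a subunit of the origin recognition complex, was at 42.9, 42.6, 47.5 and 40.5 CPM in early WT, 36.2, 38.4, 38.8 and 38.3 CPM in late WT and 30.7, 29.1 and 29.7 CPM in late DKO MEFs. Here the 3 groups did not overlap, with DKO lowest and early WT highest, but the steps were small and did not pass the test (DKO against late WT −0.34, adjusted *P* = 0.0714, edgeR). In MEFs of the *S6K1* set *Orc6* was at 52.2, 40.2, 52.4 and 35.8 CPM in early WT, 40.1, 36.1, 41.5 and 44.5 CPM in late WT and 42.8, 39.3 and 38.8 CPM in late KO MEFs, with all groups overlapping.

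*Orc1*, the largest subunit of the same complex, was at 4.82, 3.80, 4.69 and 4.42 CPM in early WT, 2.55, 0.761, 1.16 and 3.18 CPM in late WT and 1.41, 1.32 and 1.17 CPM in late DKO MEFs. Its late WT libraries all lay below the early ones but spread widely, and the passage estimate of −1.16 did not pass (adjusted *P* = 0.0633, edgeR). Within the *S6K1* set *Orc1* was at 5.25, 4.13, 4.83 and 4.80 CPM in early WT, 2.80, 2.47, 3.25 and 4.74 CPM in late WT and 3.17, 2.47 and 2.72 CPM in late KO MEFs, where KO and late WT libraries overlapped and the passage estimate was −0.53 (adjusted *P* = 0.187, edgeR). *Mcm10*, which helps activate the loaded helicase, had an estimate of −1.28 in DKO against late WT MEFs (adjusted *P* = 0.0645, edgeR), with 0.914 to 2.41 CPM in DKO and 2.83 to 4.71 CPM in late WT libraries. *Cdc6*, *Cdc45*, *Gins1*, *Gins2* and *Gins3* had DKO estimates of −0.70, −0.37, −0.50, −0.55 and −0.48, none of which passed. Against early WT MEFs, 7 of the 9 licensing genes were lower in DKO MEFs.

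Among polymerases, *Pold1*, the catalytic subunit of polymerase δ, was at 25.4, 26.7, 17.6 and 17.9 CPM in early WT, 13.4, 12.1, 11.9 and 15.4 CPM in late WT and 7.81, 6.22 and 9.83 CPM in late DKO MEFs. Its groups did not overlap, in the order early WT, late WT and DKO. *Pold1* fell with passage (log2 fold change −0.69, 95% interval −1.09 to −0.29, adjusted *P* = 0.0306, edgeR), and its DKO estimate of −0.73 missed the threshold (adjusted *P* = 0.0723, edgeR). Across the *S6K1* set *Pold1* was at 24.5, 22.7, 28.4 and 23.8 CPM in early WT, 18.8, 13.96, 20.4 and 19.98 CPM in late WT and 17.1, 15.2 and 10.8 CPM in late KO MEFs, with late WT below all early WT libraries and KO overlapping late WT. *Pole2*, the second subunit of polymerase ε, was at 5.02, 3.02, 6.24 and 1.97 CPM in early WT, 2.88, 2.63, 3.42 and 4.57 CPM in late WT and 2.33, 3.77 and 1.36 CPM in late KO MEFs, and these groups overlapped. For the *S6K1/S6K2* set it was at 4.70, 4.79, 4.10 and 3.04 CPM in early WT, 1.88, 2.42, 1.59 and 2.86 CPM in late WT and 0.914, 1.23 and 1.30 CPM in late DKO MEFs. The 3 groups of this set were apart in the order of *Pold1*, but the counts were low and neither the passage estimate (−0.88, adjusted *P* = 0.0529, edgeR) nor the DKO estimate (−0.93, adjusted *P* = 0.136) passed.

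Polymerase α and primase form 1 complex that starts every Okazaki fragment. Its primase subunit *Prim1* was at 18.3, 13.7, 21.4 and 9.35 CPM in early WT, 14.5, 9.01, 10.4 and 14.9 CPM in late WT and 16.1, 10.8 and 8.46 CPM in late KO MEFs, with KO and WT libraries overlapping (KO against late WT −0.05, adjusted *P* = 0.968, edgeR). In the *S6K1/S6K2* set *Prim1* was at 16.1, 14.6, 14.8 and 8.58 CPM in early WT, 8.74, 8.51, 10.1 and 8.53 CPM in late WT and 4.74, 5.84 and 5.01 CPM in late DKO MEFs, and DKO libraries were below all others (DKO against late WT −0.79, adjusted *P* = 0.0645, edgeR). *Pola2* fell in DKO MEFs (log2 fold change −0.71, 95% interval −1.11 to −0.32, adjusted *P* = 0.0428, edgeR), with 7.31 to 8.71 CPM in DKO and 9.85 to 15.9 CPM in late WT libraries, but was called in only 4 of 17 alternative settings. *Pola1*, *Prim2* and *Pole* had DKO estimates of −0.67, −0.66 and −0.79 that did not pass. All 7 members of this role were lower in DKO than in early WT MEFs, with log2 fold changes of −0.97 (*Pola2*) to −1.80 (*Pole2*).

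PCNA is the sliding clamp that holds polymerases on DNA, and *Pcna* was at 70.6, 58.7, 66.6 and 63.2 CPM in early WT, 81.3, 90.1, 81.6 and 73.8 CPM in late WT and 57.1, 39.1 and 56.9 CPM in late DKO MEFs. Late WT libraries lay above all early WT libraries, and DKO libraries below both groups. *Pcna* fell in DKO against late WT MEFs (log2 fold change −0.68, 95% interval −0.98 to −0.38, adjusted *P* = 0.0169, edgeR), whereas its estimate against early WT MEFs was −0.30 (adjusted *P* = 0.144, edgeR). In the *S6K1* set *Pcna* was at 89.01, 88.96, 99.6 and 60.8 CPM in early WT, 83.7, 91.2, 86.9 and 97.3 CPM in late WT and 94.7, 91.7 and 70.9 CPM in late KO MEFs, with no order among the groups. *Fen1*, which trims Okazaki fragments, and *Lig1*, which joins them, also fell in DKO MEFs. *Fen1* was at 12.1 to 16.1 CPM in DKO and 18.3 to 30.6 CPM in late WT libraries (−0.78, adjusted *P* = 0.0433, edgeR), and *Lig1* at 17.9 to 23.3 and 27.98 to 40.1 CPM (−0.69, adjusted *P* = 0.0492). The ranges did not overlap, and the calls were kept in 8 and 4 of 17 alternative settings.

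*Rfc3*, *Rfc4* and *Rfc2*, which encode clamp loader subunits, had the 3 smallest DKO estimates of this role, and a further one, *Rfc5*, had −0.53. *Rfc2* was at 49.2, 44.7, 50.8 and 47.8 CPM in early WT, 40.97, 49.6, 45.2 and 42.5 CPM in late WT and 43.03, 36.1 and 32.01 CPM in late DKO MEFs, and DKO and late WT libraries overlapped (log2 fold change −0.27, 95% interval −0.53 to 0.00). Its *S6K1* set values were 58.7, 79.5, 59.5 and 77.5 CPM in early WT, 58.6, 54.8, 52.8 and 77.6 CPM in late WT and 49.05, 48.04 and 46.5 CPM in late KO MEFs, with KO libraries below all WT libraries (KO against late WT −0.35, adjusted *P* = 0.531, edgeR). *Rfc3* was at 25.3, 21.1, 22.3 and 18.8 CPM in early WT, 20.3, 19.7, 14.9 and 18.3 CPM in late WT and 17.9, 19.04 and 15.3 CPM in late DKO MEFs, again overlapping (log2 fold change −0.07, 95% interval −0.40 to 0.26). In MEFs of the *S6K1* set *Rfc3* was at 30.6, 27.6, 27.8 and 22.6 CPM in early WT, 21.1, 25.05, 17.3 and 26.4 CPM in late WT and 22.1, 23.4 and 22.1 CPM in late KO MEFs, with an estimate of 0.00 for KO against late WT MEFs. *Rfc4* was at 19.9, 38.8, 20.9 and 31.9 CPM in early WT, 23.1, 17.7, 11.7 and 26.4 CPM in late WT and 12.8, 13.6 and 12.8 CPM in late KO MEFs, high in early WT replicates 2 and 4, and KO libraries lay within a narrow range at the lower end of the late WT range. Its KO estimate against late WT MEFs was −0.60 (adjusted *P* = 0.526, edgeR). For *Rfc4* the other set had 18.6, 17.5, 15.96 and 14.2 CPM in early WT, 12.02, 15.1, 17.5 and 13.4 CPM in late WT and 13.8, 15.3 and 9.89 CPM in late DKO MEFs, and DKO and late WT libraries overlapped. *Rpa2*, a subunit of the single-strand binding protein, was at 23.8, 20.7, 19.6 and 17.4 CPM in early WT, 18.999, 20.1, 23.2 and 19.98 CPM in late WT and 18.3, 18.003 and 13.8 CPM in late DKO MEFs, with early and late WT libraries overlapping (log2 fold change 0.06) and DKO libraries just below the late WT ones (−0.30, adjusted *P* = 0.327, edgeR). Its *S6K1* set values were 25.2, 30.7, 27.04 and 32.4 CPM in early WT, 34.7, 28.7, 31.2 and 34.5 CPM in late WT and 26.1, 23.3 and 19.8 CPM in late KO MEFs, where KO libraries lay below all late WT libraries (−0.48, adjusted *P* = 0.314, edgeR).

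Ribonucleotide reductase makes deoxynucleotides, and its large subunit gene *Rrm1* was at 151, 127, 148 and 118 CPM in early WT, 90.9, 125, 78.8 and 136 CPM in late WT and 72.7, 56.7 and 78.6 CPM in late DKO MEFs. DKO libraries were the lowest of the set, and *Rrm1* had an estimate of −0.64 against late WT MEFs (adjusted *P* = 0.0837, edgeR) and fell against early WT MEFs (−0.93, adjusted *P* = 0.00781). Within the *S6K1* set *Rrm1* was at 152, 166, 207 and 125 CPM in early WT, 124, 134, 156 and 163 CPM in late WT and 155, 130.0 and 81.5 CPM in late KO MEFs, with KO replicate 3 apart from the other 10 libraries on the low side. *Tyms*, which encodes thymidylate synthase, was at 30.04, 23.6, 23.3 and 22.6 CPM in early WT, 17.9, 13.3, 14.6 and 17.4 CPM in late WT and 14.2, 17.7 and 13.5 CPM in late DKO MEFs. It fell with passage (log2 fold change −0.60, 95% interval −0.93 to −0.28, adjusted *P* = 0.0218, edgeR), while DKO and late WT libraries overlapped (log2 fold change −0.06, 95% interval −0.42 to 0.29). Its *S6K1* set values were 37.7, 27.4, 33.5 and 25.3 CPM in early WT, 27.6, 21.2, 18.9 and 37.2 CPM in late WT and 38.5, 30.9 and 25.9 CPM in late KO MEFs, and these groups overlapped. *Rrm2*, the small subunit of the reductase, was at 26.1 to 32.2 CPM in DKO and 35.5 to 41.02 CPM in late WT libraries, and *Tk1*, thymidine kinase, at 4.20 to 6.56 and 6.16 to 14.4 CPM. They had DKO estimates of −0.46 and −1.07 that did not pass (adjusted *P* = 0.0763 and 0.0819, edgeR), and both fell against early WT MEFs (−0.75 and −1.90).

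ASF1B hands new histones to CAF-1, and *Asf1b* was at 11.8, 7.98, 11.6 and 10.2 CPM in early WT, 9.04, 10.8, 9.64 and 7.001 CPM in late WT and 2.49, 2.54 and 2.72 CPM in late DKO MEFs. The DKO libraries lay close together and below all WT libraries. *Asf1b* fell in DKO against late WT MEFs (log2 fold change −1.81, 95% interval −2.29 to −1.34, adjusted *P* = 0.00250, edgeR) and was called in all 17 alternative settings. Across the *S6K1* set *Asf1b* was at 12.9, 12.2, 13.3 and 10.6 CPM in early WT, 17.7, 9.65, 10.4 and 17.4 CPM in late WT and 11.6, 9.15 and 5.59 CPM in late KO MEFs, with an estimate of −0.65 for KO against late WT MEFs and overlapping libraries (adjusted *P* = 0.448, edgeR). *Uhrf1*, which brings DNMT1 to newly copied DNA, had 12.3 to 18.4 CPM in early WT, 8.98 to 11.4 CPM in late WT and 4.39 to 5.18 CPM in DKO libraries, 3 ranges that did not overlap. *Uhrf1* fell with passage (−0.64, adjusted *P* = 0.0209, edgeR) and again in DKO against late WT MEFs (−1.02, adjusted *P* = 0.0103), 2 comparisons that share the late WT libraries.

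CAF-1 places histones on new DNA, and both of its large subunit genes were members. *Chaf1b* was at 20.2, 19.7, 13.7 and 13.3 CPM in early WT, 10.8, 12.8, 11.9 and 10.9 CPM in late WT and 5.15, 8.67 and 7.17 CPM in late DKO MEFs, with the 3 groups apart in the order early WT, late WT and DKO (DKO against late WT −0.73, adjusted *P* = 0.0843, edgeR). *Chaf1a* was at 35.4, 34.4, 32.2 and 32.6 CPM in early WT, 21.6, 27.04, 23.98 and 32.9 CPM in late WT and 23.01, 23.8 and 22.6 CPM in late DKO MEFs, and its DKO libraries lay inside the late WT range (log2 fold change −0.19, 95% interval −0.50 to 0.12). In the *S6K1* set *Chaf1b* was at 20.9, 28.1, 21.7 and 30.4 CPM in early WT, 17.03, 12.6, 14.04 and 22.6 CPM in late WT and 15.3, 14.5 and 8.99 CPM in late KO MEFs, and KO and late WT libraries overlapped. *Chaf1a* was there at 34.7, 50.3, 43.3 and 86.6 CPM in early WT, 41.8, 35.1, 36.7 and 55.6 CPM in late WT and 32.6, 28.9 and 24.8 CPM in late KO MEFs, with KO libraries below all late WT libraries (−0.56, adjusted *P* = 0.543, edgeR). Both were highest in early WT replicate 4. *Chaf1b* had the largest passage estimate of the *S6K1* set (−0.62, adjusted *P* = 0.103, edgeR), which did not pass. *Dnmt1*, the maintenance methyltransferase, spread widely in DKO libraries (14.04 to 28.1 CPM) and had an estimate of −0.40 against late WT MEFs that did not pass.

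E2F1 and E2F2 are activators of S phase genes, and of their genes only *E2f2* passed the test in DKO against late WT MEFs. *E2f2* was at 1.64, 1.47, 1.63 and 2.51 CPM in early WT, 3.58, 4.98, 2.39 and 2.23 CPM in late WT and 0.166, 0.660 and 0.803 CPM in late DKO MEFs, which corresponded to 2 to 13 counts in DKO libraries and 33 to 72 counts in late WT libraries. DKO libraries lay below all others although the counts were few, under 3 in 1 library, and *E2f2* fell against late WT MEFs (log2 fold change −2.56, 95% interval −3.66 to −1.49, adjusted *P* = 0.0143, edgeR). In MEFs of the *S6K1* set *E2f2* was at 1.49, 1.55, 2.36 and 1.03 CPM in early WT, 3.11, 1.75, 3.25 and 1.78 CPM in late WT and 2.33, 2.04 and 2.04 CPM in late KO MEFs, and the groups overlapped (passage 0.61, adjusted *P* = 0.257, edgeR). *E2f1* was at 31.1, 37.4, 34.6 and 42.2 CPM in early WT, 39.5, 50.6, 52.9 and 47.03 CPM in late WT and 55.2, 50.4 and 46.3 CPM in late DKO MEFs. DKO and late WT libraries overlapped (log2 fold change 0.09, 95% interval −0.21 to 0.40), and DKO libraries lay above all early WT libraries. *E2f1* rose with passage (log2 fold change 0.43, 95% interval 0.15 to 0.72, adjusted *P* = 0.0478, edgeR), a call kept in 3 of 17 alternative settings, and in DKO against early WT MEFs (0.52, adjusted *P* = 0.0241). Within the *S6K1* set it was at 36.4, 38.99, 33.2 and 47.7 CPM in early WT, 47.2, 40.3, 49.01 and 52.6 CPM in late WT and 44.5, 44.6 and 42.7 CPM in late KO MEFs (passage 0.26, adjusted *P* = 0.263, edgeR). *Ccne1* and *Ccne2*, the cyclins E, had DKO estimates of −0.18 and −0.31 that did not pass.

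**Figure D5:**
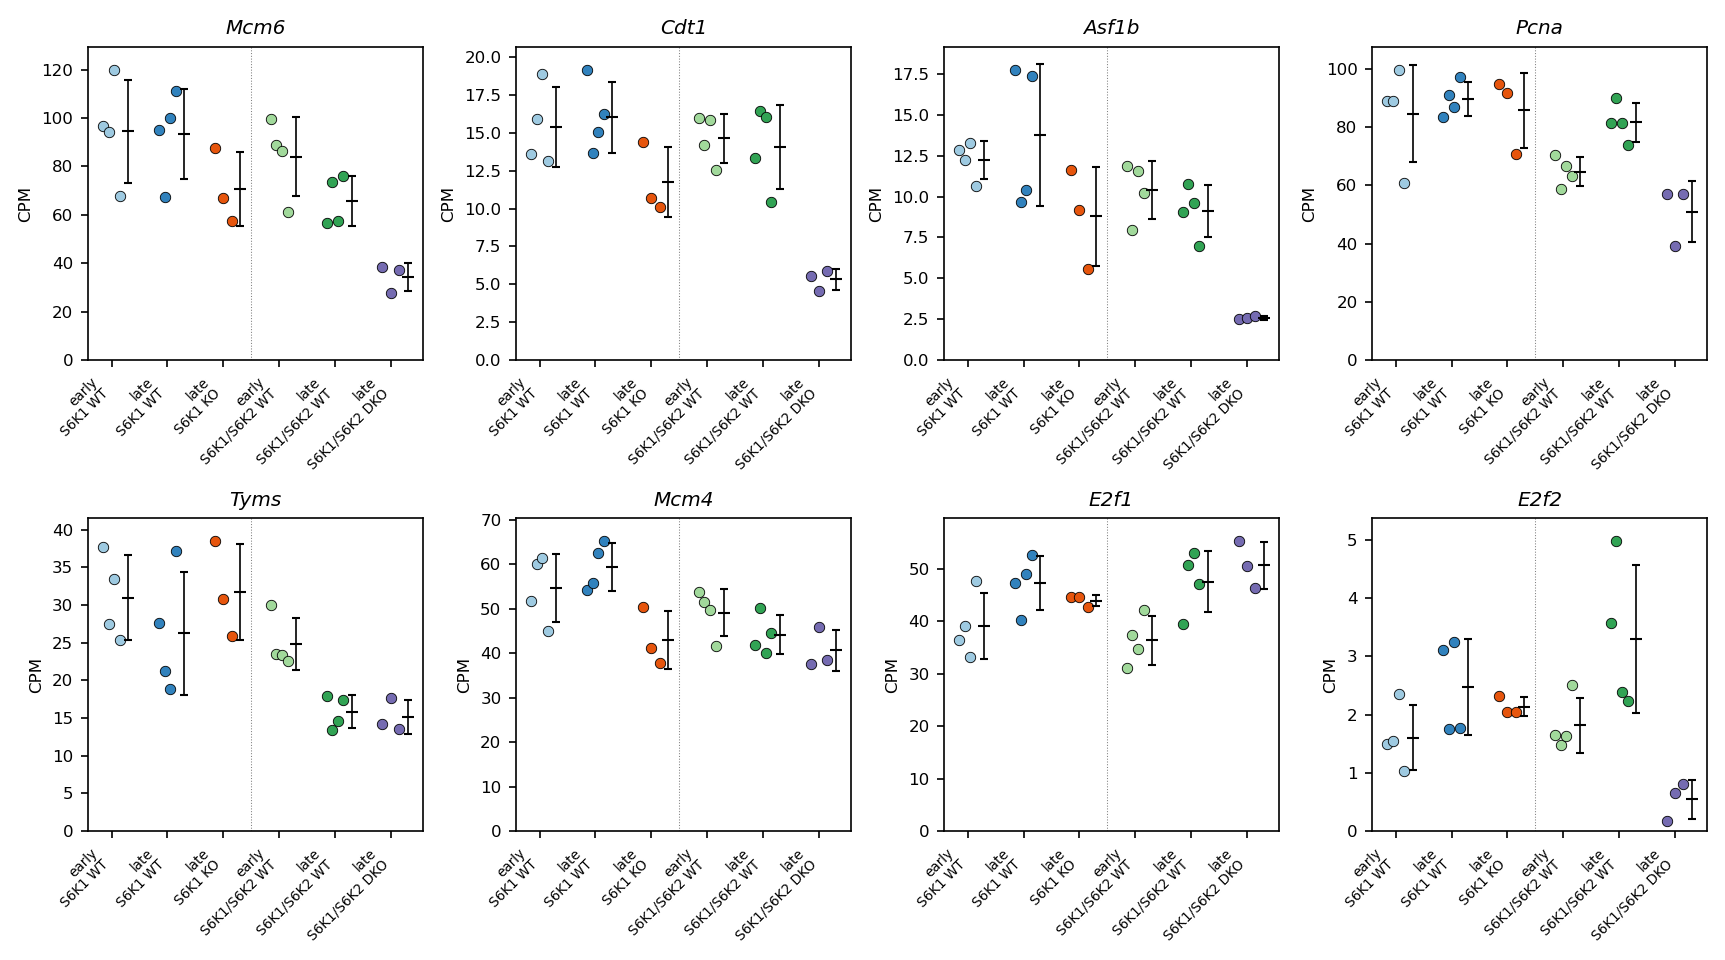
CPM of 8 members in each library (points) by group, with the mean ± SD of the group beside them and each axis starting at 0. *Mcm6*, *Cdt1*, *Asf1b*, *Pcna* and *E2f2* show DKO libraries below all WT libraries of the set, whereas DKO and late WT libraries overlap for *Tyms*, *Mcm4* and *E2f1*.

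Other genes of the same pathways were counted in lists of known genes, for passage and KO in the *S6K1* set and for passage and DKO in the *S6K1/S6K2* set, in this order. Over all genes tested, 844 of 14132, 5 of 14132, 4.89% and 3.95% were lower in these comparisons. Of 33 other replisome and licensing genes, 3, 0, 4 and 3 were lower, with a DKO median of −0.40, and 1, *Pole3*, was higher with passage in the *S6K1/S6K2* set, where 8.28% of all genes were. Those lower in DKO MEFs were *Gmnn* (−1.45, adjusted *P* = 0.00577, edgeR), which encodes the CDT1 inhibitor geminin, *Dbf4* (−0.76), the activator of the CDC7 kinase, and *Pold3* (−0.73), a subunit of polymerase δ. Of 24 other nucleotide metabolism genes, 0, 0, 2 and 0 were lower, with a DKO median of −0.28. In DKO MEFs DESeq2 called 3 of them lower, against 5.92% of all genes. The smallest adjusted *P* values of that list in DKO MEFs, by edgeR, belonged to *Samhd1* (−0.56, adjusted *P* = 0.0856), which degrades deoxynucleotides, and *Dctpp1* (−0.70, adjusted *P* = 0.0890). Of 25 RB-E2F and DREAM regulators, 0, 0, 1 and 1 were lower, the 1 in DKO MEFs being *E2f8* (−1.31, adjusted *P* = 0.0356, edgeR), which encodes an atypical E2F repressor. In the *S6K1/S6K2* set this was 4% of the list each time, close to the shares of all genes. Another regulator, *Rb1* (0.63, adjusted *P* = 0.0161, edgeR), was higher with passage in the same set. DESeq2 called 0 genes of these 3 lists in KO against late WT MEFs, as did edgeR.

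Mitotic genes, which peak later in the cell cycle, were lower in 2, 0, 14 and 11 of 20, with DKO median −0.82 beside −0.67 for the 43 members. The shares of all genes that were lower in the same comparisons are given above. *Mki67*, the proliferation marker, was at 91.01, 81.2, 64.3 and 48.5 CPM in early WT, 28.7, 45.2, 33.1 and 38.4 CPM in late WT and 16.6, 14.5 and 19.2 CPM in late DKO MEFs. Its DKO libraries were the lowest and its early WT libraries the highest (DKO against late WT −1.11, adjusted *P* = 0.0147, edgeR). Among cell cycle inhibitors and senescence markers, *Cdkn2a*, which encodes p16 and ARF, rose with passage in both sets (1.20 and 1.10, adjusted *P* = 0.0137 and 0.0156, edgeR) and had estimates of −0.19 in KO and 0.21 in DKO against late WT MEFs that did not pass. *Cdkn1a*, which encodes p21, had DKO and KO estimates of 0.19 and 0.28, and *Lmnb1*, the lamin gene that is reduced in senescent cells, fell in DKO against late WT MEFs (−1.23, adjusted *P* = 0.0399, edgeR). *Trp53*, which encodes p53, fell there as well (−0.56, adjusted *P* = 0.0450, edgeR), although DKO and late WT libraries overlapped. In KO against late WT MEFs the estimates were −0.83 for *Lmnb1* and 0.17 for *Trp53*, and neither passed (adjusted *P* = 0.362 and 0.834, edgeR). *Mdm2*, a p53 target and inhibitor, rose with passage in the *S6K1/S6K2* set (0.99, adjusted *P* = 0.00536, edgeR) and had −0.21 in DKO against late WT MEFs. Its passage estimate in the *S6K1* set was 0.09 and did not pass (adjusted *P* = 0.827, edgeR).

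Macrophage markers moved in the same comparison as the members. All 19 rose with passage in the *S6K1* set and 18 in the *S6K1/S6K2* set, against 983 of 14132 and 8.28% of all genes. In DKO against late WT MEFs 17 of 19 fell, against 3.95% of all genes, with a median of −2.40. In KO against late WT MEFs 0 were called by edgeR, with a median of −0.87. At an unadjusted *P* under 0.05 there were 13, beside 1499 of the 14132 genes, and DESeq2 called 5 lower, beside 167 of 14132. Against early WT MEFs, DKO MEFs had 1 of 19 markers called, with a median of 0.09, while 32 of the 43 members were lower. Within DKO MEFs, replicate 1 had 3433 CPM of macrophage markers and a mean member level of −0.90, and replicates 2 and 3 had 1036 and 932 CPM and −0.87 and −0.77. Fibroblast markers summed to 30274 to 39417 CPM in early WT, 19547 to 26749 CPM in late WT and 24644 to 27912 CPM in DKO libraries, so early WT libraries lay above all late ones. In the *S6K1* set they summed to 29644 to 35979, 19245 to 26663 and 24065 to 26149 CPM in early WT, late WT and KO libraries, in that order of groups. Of the 10 fibroblast markers, edgeR called 2 lower and 0 higher with passage in each set, where 844 of 14132 and 4.89% of all genes were lower. Estimates below 0 numbered 6 of 10 in the *S6K1* set and 7 of 10 in the *S6K1/S6K2* set. In DKO against late WT MEFs 0 were lower and 1 higher (*Pdgfrb*, 0.55, adjusted *P* = 0.0440, edgeR). The 7 epithelial and mesothelial markers summed to 88.2 to 117 CPM in early WT, 12.9 to 39.9 CPM in late WT and 12.9 to 16.5 CPM in DKO libraries. Of the 5 tested in that set, 3 were lower with passage (median −3.44), 0 were called by edgeR in DKO against late WT MEFs (2 at an unadjusted *P* under 0.05; 1 higher by DESeq2) and 3 were lower in DKO against early WT MEFs (median −2.86). The part of macrophage, fibroblast or epithelial RNA in the members' values was not tested. With Y-linked expression added to the model, the members called lower in DKO than in late WT MEFs were those called without it, except *Lig1*.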

How the data were processed

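Poly(A) RNA of MEFs was sequenced by the study as stranded single-end libraries. The deposited table held raw counts of reads per gene for 22 libraries, which the authors made without pooling replicates. The methods of the study name TopHat, mm9 and HTSeq, whereas the submitters' processing notes name CASAVA, STAR 2.7.1a, DESeq2 1.28.1 and mm10, and the annotation release and the strand setting of counting are not given in the sources used here. Genes with near-identical copies elsewhere, such as *Pcna*, are uncertain to the extent that counting split their reads.

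Of 55401 Ensembl gene identifiers, 32589 matched a symbol and held 96.98% of counts. Library totals were 10742454 to 17314832, where 3 counts correspond to 0.166 to 0.283 CPM on the TMM scale, and such floors cover counting error only. All 30 pairs of libraries within groups differed by more than sampling noise. Within each set, its 3 groups were fitted together in edgeR 4.0.16 (R 4.3.3) with filterByExpr, TMM scaling and the robust quasi-likelihood F test, and differences between sets in one model over the 22 libraries. Adjusted *P* values are Benjamini-Hochberg values over all genes tested, and no adjustment over the members alone is given. The mean level used log2 CPM with a prior count of 2. Per-kilobase levels used union exon lengths of GENCODE vM1, and promoters came from RefSeq (GRCm38.p6). The models were also run on simulated counts beforehand, and no result is drawn from that run here. DESeq2 1.42.0, other scaling, filters, samples and covariates were tried as alternatives.

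The 43 members, the other lists and the tests were chosen with earlier results of these data known. By the rule for named genes all members could be named, and values of every library were given for the most abundant member of each role and for the 3 members with the largest and the 3 with the smallest absolute log2 fold change in each of the 4 comparisons of passage and genotype within sets. From the other lists up to 4 genes with the smallest adjusted *P* in DKO against late WT MEFs could be named, with *Rps6kb1*, *Rps6kb2*, *Cdkn2a*, *Cdkn1a* and *Mki67* as checks. *Pole3*, *Rb1* and *Mdm2* fall outside this rule and were chosen after their values were seen.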

Additional observations from a re-analysis of the deposited data

Results flagged for a closer look

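In groups of 4 libraries, the gap between the highest or lowest value and its nearest neighbour was divided by the range of the group and set against Dixon's 95% critical value for 4 samples, which chance alone passes in about 1 of 20 groups. Over the 20 members that the rule for named genes chose for library values and 8 other measures (*Rps6kb1*, *Rps6kb2*, *Cdkn2a*, *Cdkn1a*, *Mki67*, the mean levels of members and of mitotic genes and the summed macrophage markers), 112 groups of 4 gave 3 such values. *E2f2* was highest in early WT replicate 4 of the *S6K1/S6K2* set, at 2.51 CPM, where the other 3 libraries lay at 1.47 to 1.64 CPM. *Prim1* was highest in late WT replicate 3 of the *S6K1/S6K2* set, at 10.1 CPM against 8.51 to 8.74 CPM in the others. *Tyms* was highest in early WT replicate 1 of the *S6K1/S6K2* set, at 30.0 CPM against 22.6 to 23.6 CPM. Without that early WT replicate the set had 0 members called for passage, and *Tyms* was called in 15 of 17 alternative settings in all.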

How the results depend on the processing

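No paired analysis was possible because the labels give the groups no shared replicate numbers. For passage in the *S6K1* set (0 members called), the count was 3 with the Y-linked covariate (*Chaf1b*, *Lig1* and *Rfc4*, all lower). With that covariate 1623 of 14132 genes were lower. The count was 0 to 1 with 1 library left out. For passage in the *S6K1/S6K2* set (4 called), it was 14 by DESeq2 and 0 to 10 with 1 library left out. For DKO against late WT MEFs (12 called), it was 22 by DESeq2 and 2 to 14 with 1 library left out, lowest without DKO replicate 2, where 97 genes in all were called in place of 686. For KO against early WT MEFs (4 called), it was 8 by DESeq2 and 2 with the Y-linked covariate, where 527 of 14132 genes were lower. It was 7 with all 6 groups in 1 fit, 0 without early WT replicates 2 and 4 and 0 to 6 with 1 library left out. The genotype interaction (0 called) had 1 by DESeq2. The cause was not tested. In DKO against early WT MEFs (33 called), 26 to 34 members were called with 1 library left out. Apart from the fit without DKO replicate 2, calls over all genes with 1 library left out are not given. Differences in the mean level kept their sign in every alternative run, with ranges when 1 library was left out of −0.20 to −0.0036 and −0.38 to −0.10 for passage and KO in the *S6K1* set and of −0.42 to −0.29 and −0.71 to −0.61 for passage and DKO in the *S6K1/S6K2* set. Against early WT MEFs they were −0.49 to −0.20 for KO and −1.07 to −0.94 for DKO. Over these alternatives, calls of single members were kept in 42 of 68 values for passage and 153 of 204 for DKO against late WT MEFs in the *S6K1/S6K2* set, and in 46 of 72 for KO and 530 of 561 for DKO against early WT MEFs, and 0 changed sign.

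With 3 or 4 libraries a group, members that did not pass were not shown to be unaffected, and low counts limit *E2f2*, *Orc1*, *Pole2* and *Mcm10*. Genotype and litter cannot be told apart in the *S6K1/S6K2* set, and the part of RNA of other cell types in the values was not tested. That of embryo sex was tested only by the covariate given here.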
